A study of Mus musculus with 11 samples.

Results

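The genes described here are 46 mouse genes of ribosome biogenesis and the nucleolus, listed by function and found in the deposited table by the Ensembl identifier of each symbol, so all 46 were present among the 48795 genes of the table. Their RNA levels were read in 11 libraries of sorted splenic B cells, 1 library per mouse and cell type, in TPM, a level per transcript length scaled to the same total in each library. LZ B cells, the germinal center B cells of the light zone where cells compete for T cell help, came from 4 Myc WT mice (numbered 1 to 4) and from 4 Myc V394D mice (Myc VD, numbered 5 to 8), and memory B cells (MBCs) came from Myc WT mice 1, 3 and 4, which also gave LZ libraries. All mice were females of 8 to 12 weeks on the C57BL/6 background, given sheep red blood cells (SRBC) intravenously and analyzed on day 10. Myc VD carries its substitution at the endogenous Myc locus in every cell, not in B cells alone, and the mutant MYC cannot bind MIZ1 while it still binds MAX. LZ B cells were gated as B220+ CD138neg IgDneg CD38neg Fas+ CD86high CXCR4low, and MBCs as B220+ CD138neg IgDneg CD38+ CD273+. The 4 Myc VD mice shared 1 prefix in their names, whereas Myc WT mice carried 2 others, so genotype and name prefix cannot be told apart.

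Ribosomes are built in the nucleolus. RNA polymerase I copies the ribosomal DNA into a long precursor, small nucleolar RNPs (snoRNPs) modify the precursor at positions chosen by their guide RNAs, and large sets of assembly factors fold, cut and export the small and the large subunit. Many of the genes that encode this machinery carry E-box sequences and are textbook targets of MYC, which positively selected LZ B cells induce before they divide, whereas resting MBCs grow and divide little. The 46 genes were grouped by role, as 4 genes of RNA polymerase I transcription, 3 of box C/D snoRNPs, which methylate rRNA, 4 of box H/ACA snoRNPs, which turn uridine into pseudouridine, 6 nucleolar scaffold, chaperone or helicase genes, 16 small subunit assembly genes and 13 large subunit assembly genes.

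The libraries carried the marker genes of their gates. The summed level of 8 MBC genes was 569 to 883 TPM in MBCs and 20.7 to 51.4 TPM in LZ libraries, and that of 8 LZ genes was 471 to 584 TPM in MBCs and 636 to 1089 TPM in LZ libraries. MBC libraries 1 and 3 held fewer genes above 0 (12983 and 11527) than the remaining libraries (13169 to 19537), and MBC library 3 also held 6713 TPM of 7 erythroid genes, against 7.60 and 53.4 TPM in the other MBC libraries, 116 to 227 TPM in Myc WT LZ and 72.0 to 417 TPM in Myc VD LZ libraries. TPM hold no read numbers, so the depth of the libraries is unknown, and a value of 0 may stand for an estimate that failed. In these bulk libraries fewer cells of a type and less RNA per cell cannot be told apart.

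The 46 genes spanned a wide range of levels. Npm1, which encodes the nucleolar chaperone nucleophosmin, had the highest mean over the 11 libraries (1250.5 TPM), and Rrp12, a small subunit export factor, the lowest (3.76 TPM), with a median gene at 21.3 TPM. A mean above 100 TPM was found for 7 genes, Npm1, Ncl, Nop56, Nop58, Emg1, Gar1 and Mybbp1a, and a mean under 10 TPM for 8 genes. All 46 genes had a mean of at least 1 TPM and entered the 3 comparisons. At least 1 library listed 5 of them at 0, namely Rrp12, Grwd1, Mrto4 and Nop2 in MBC library 3 and Rrp9 in MBC library 1 and Myc VD LZ library 6. Spread between libraries was largest in MBCs, for these genes as for all genes: the median SD of log2(TPM + 1) was 0.35 in Myc WT LZ libraries (0.33 for 13241 genes), 0.43 in Myc VD LZ libraries (0.59) and 0.89 in MBC libraries (0.95). In the heatmap of the 46 genes the LZ columns are accordingly mostly pale, apart from Rrp9 in Myc VD LZ library 6. The MBC columns are darker in both directions.

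**Figure D1:**
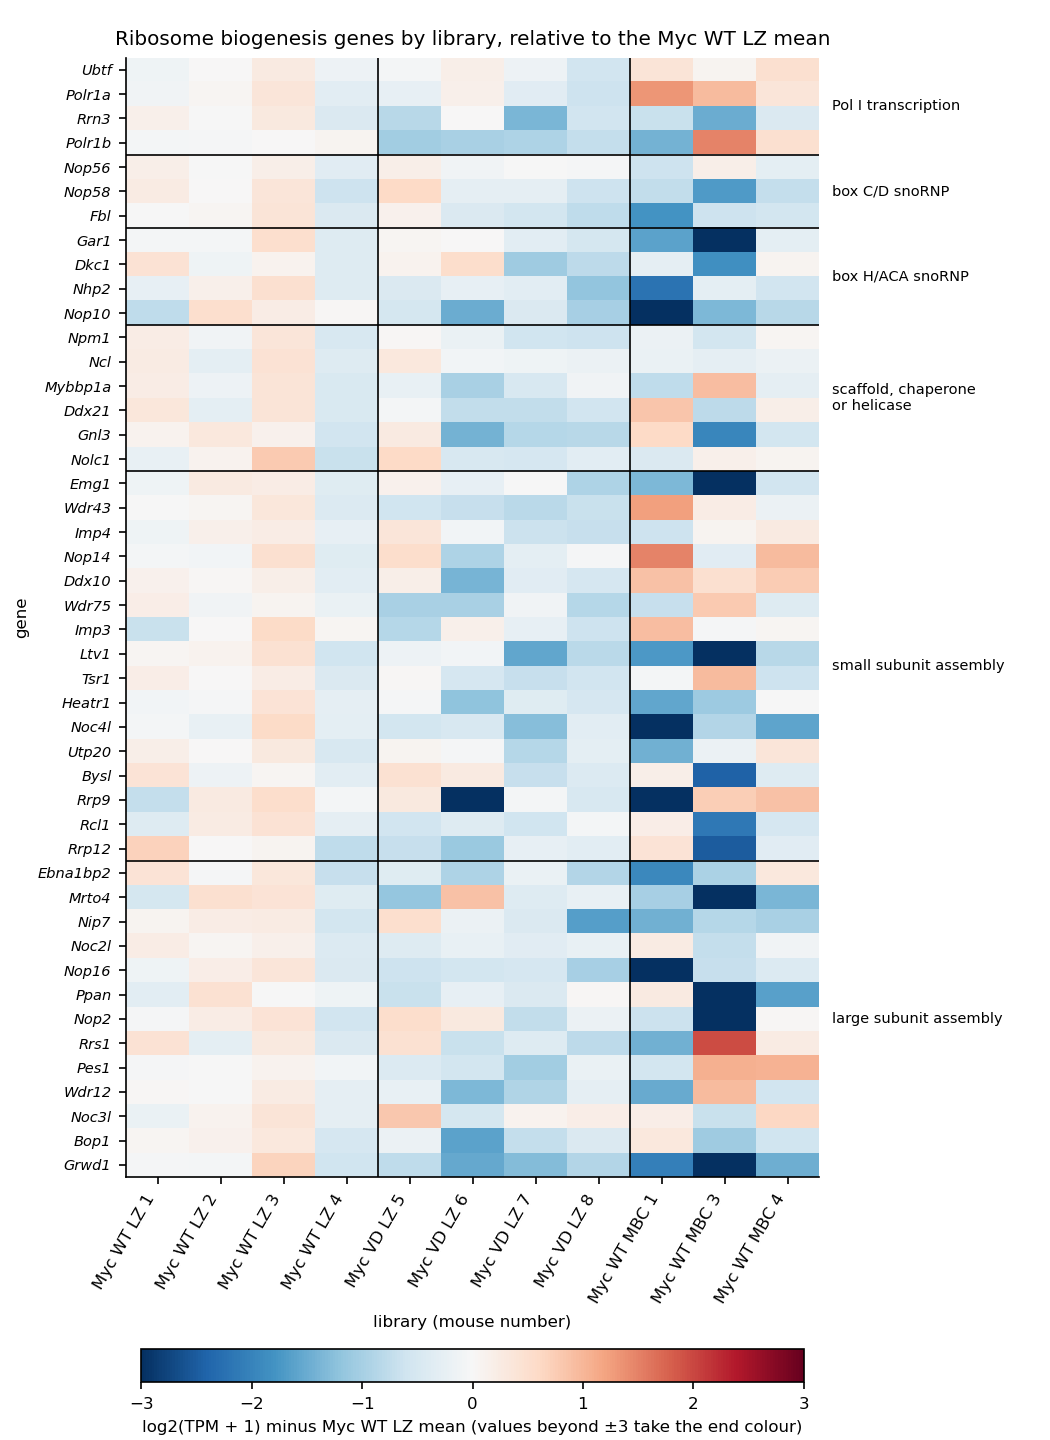
Each row is 1 of the 46 genes, grouped by role and ordered by mean TPM within the role, and each column is 1 library; color gives log2(TPM + 1) minus the mean of the 4 Myc WT LZ libraries. The LZ columns lie close to 0 with a pale blue cast in Myc VD, and the MBC columns hold the darkest cells, among them those of the genes listed at 0.

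Summed over the 46 genes, the level was 3999, 3533, 4634 and 2691 TPM in Myc WT LZ libraries 1 to 4, 3800.0, 3090.2, 2674 and 2529.8 TPM in Myc VD LZ libraries 5 to 8, and 2866, 2636 and 3351 TPM in MBC libraries 1, 3 and 4. The groups overlapped. Npm1 alone made up 34.0% to 43.0% of the sum. These sums depend on what else takes up the fixed total, and rRNA was a large other item, both the nuclear rRNA that this pathway makes and mitochondrial rRNA. Nuclear rRNA genes took 17.0% to 21.3% of TPM in Myc WT LZ, 20.6% to 26.5% in Myc VD LZ and 7.32% to 9.23% in MBC libraries. Nearly all of this share came from 1 annotated gene, CT010467.1. It was 170374 to 213329 TPM in Myc WT LZ, 206361 to 265119 TPM in Myc VD LZ and 72928.7 to 92294.8 TPM in MBC libraries. The MBC share lay below each LZ library, by 11.1 percentage points on average against Myc WT LZ and by 16.4 against Myc VD LZ (exact permutation test, two-sided, p = 0.0286 for each, the smallest p that 3 against 4 libraries allow), while Myc VD and Myc WT LZ libraries overlapped and differed by 5.32 points (exact permutation test, p = 0.0571). Mitochondrial rRNA took 18.7% to 24.6%, 23.5% to 34.8% and 26.9% to 29.9% in the same order, so that all rRNA together took 35.7% to 44.5% in Myc WT LZ, 44.1% to 61.3% in Myc VD LZ and 36.1% to 37.5% in MBC libraries. How much of this share reflects the rRNA content of the cells and how much the library preparation was not tested.

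When the 356 rRNA genes were removed and each library was scaled again to the same total, the sum of the 46 genes became 6212 ± 1071 TPM in Myc WT LZ (SD, n = 4), 6268 ± 528 TPM in Myc VD LZ (SD, n = 4) and 4676 ± 522 TPM in MBC libraries (SD, n = 3). On this scale the LZ groups had nearly the same mean, with a difference far smaller than either SD. The MBC sums (4221 to 5246 TPM) were below each Myc VD LZ library (5584 to 6797 TPM), and overlapped Myc WT LZ libraries only through library 4 (4851 TPM).

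**Figure D2:**
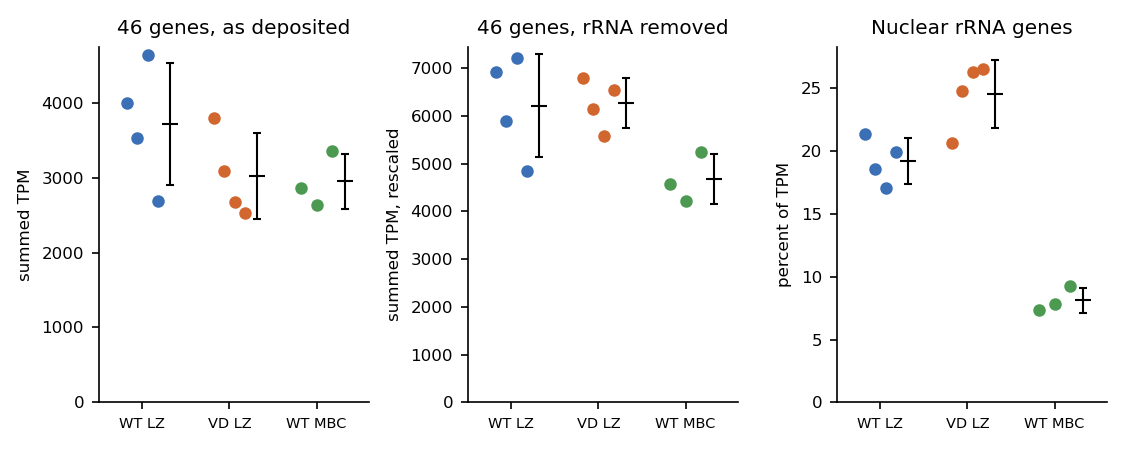
Each point is 1 library, and the bars show mean ± SD of the group, for the summed TPM of the 46 genes as deposited (left), the same after removal of rRNA genes and rescaling (middle) and the percent of TPM in nuclear rRNA genes (right). On the left the Myc VD LZ mean is lower but the libraries overlap those of Myc WT LZ, in the middle the LZ means are nearly equal, and the MBC libraries stand apart on the right at 7.32% to 9.23%.

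To find how the genes of ribosome production differ when MYC cannot bind MIZ1, Myc VD LZ libraries were compared with Myc WT LZ libraries by limma on log2(TPM + 1). None of the 46 genes passed the adjusted threshold of 0.05 in either direction, where 0.0466% of all 12869 genes tested did (6 genes; 0.0389% lower and 0.00777% higher). At an unadjusted p under 0.05, 6 of the 46 genes were lower and 0 higher, that is 13% lower where 15.7% of all genes tested were lower and 1.24% higher. This count ran from 2 without Myc WT library 3 to 14 without Myc VD library 5, and the number of all genes past the adjusted threshold from 0 to 254, the latter also without Myc VD library 5. Most signs were nonetheless negative: 44 of the 46 genes had a lower mean log2(TPM + 1) in Myc VD, against 73.7% of all genes. The median log2 difference was -0.42 for the 46 genes and -0.31 for all genes tested. The median of the 46 genes stayed between -0.57 and -0.32 as each library was left out in turn, with all genes between -0.39 and -0.26. Relative to the median of all genes, 30 of the 46 genes were lower. Marker lists of other cells were compared by genotype too. Of 7 erythroid genes 6 were higher in Myc VD, 3 of them at an unadjusted p under 0.05 (median 0.98). All 5 plasma cell genes tested were lower, 1 of them at an unadjusted p under 0.05, with a median of -0.32 close to that of all genes. After removal of rRNA genes 6 were tested, 3 lower and 3 higher (median 0.027). As deposited, the list of 8 summed to 163 to 273 TPM in Myc VD and 266 to 434 TPM in Myc WT LZ libraries. All 18 S phase genes were lower as well, 7 of them at an unadjusted p under 0.05 (median -0.58), and 17 were lower after removal of rRNA genes (median -0.28). Of 18 G2/M genes 15 were lower as deposited, with a median of -0.32 close to that of all genes, and 9 after removal of rRNA genes. The part of these lists in the differences of the 46 genes was not tested.

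After removal of rRNA genes the shift was smaller. The median log2 difference of the 46 genes was -0.14 where that of all genes was -0.05. This is a distance of -0.084 where it had been -0.11 as deposited (-0.037 without Myc VD library 7 to -0.20 without Myc WT library 4). On this scale 30 genes were lower (65.2%, beside 54.2% of all genes) and 16 higher. Only Grwd1 kept an unadjusted p under 0.05 (2.17%, beside 6.56% of all genes lower and 4.55% higher). Only in Polr1b, which was lower, did the groups not overlap (2.17%, beside 3.81% lower and 2.85% higher). By TPM of nuclear protein-coding genes alone the median was -0.064, with 26 genes lower and 20 higher. In the plot of genotype differences each gene moves up between the scales, whatever its role.

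**Figure D3:**
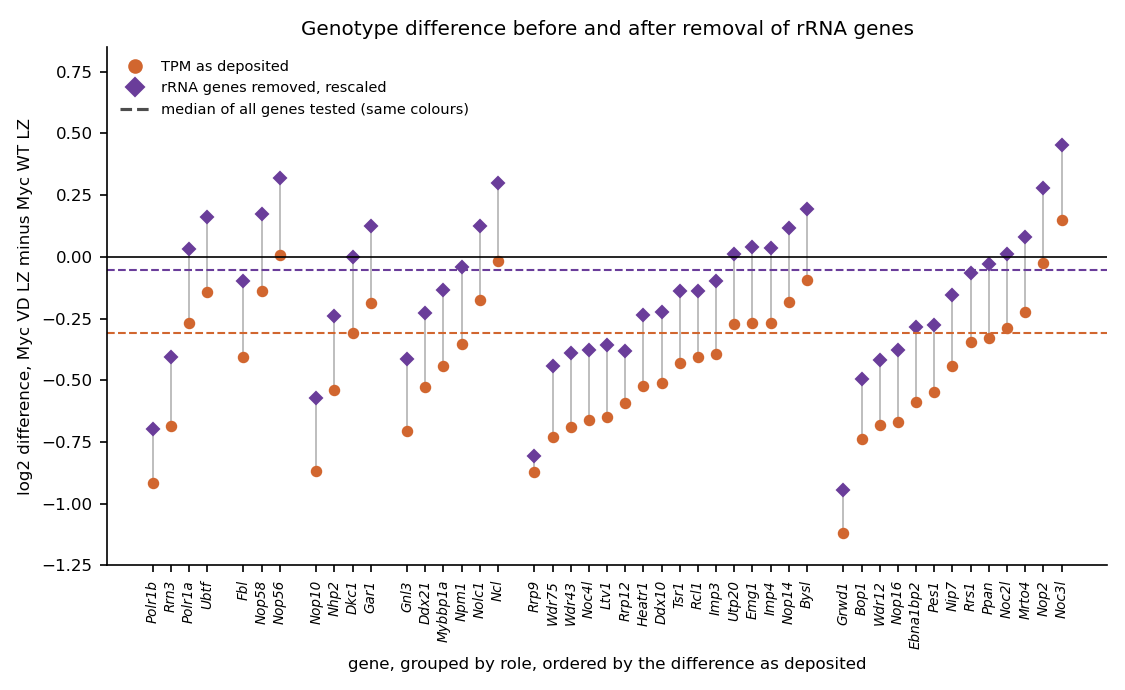
For each of the 46 genes, the log2 difference of Myc VD LZ minus Myc WT LZ is drawn for TPM as deposited (circles) and after removal of rRNA genes with rescaling (diamonds), with the median of all genes tested as dashed lines at -0.31 and -0.05. As deposited 44 of the 46 circles lie below 0, and after rescaling 30 diamonds do.

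Of the 4 genes of RNA polymerase I transcription, all were lower in mean as deposited, with a median of -0.48, and 2 after removal of rRNA genes, with a median of -0.19. Polr1b, which encodes the second largest polymerase I subunit (chr2:129100995-129126594, GRCm38), was 7.92, 8.02, 8.37 and 8.92 TPM in Myc WT LZ libraries and 3.51, 3.71, 3.89 and 4.67 TPM in Myc VD LZ libraries. The groups did not overlap, and both were tight. The log2 difference was -0.92 ± 0.29 (SE; limma adjusted p = 0.167), and -0.70 after removal of rRNA genes. Polr1a, the largest subunit of the same enzyme, was 18.2, 20.5, 25.6 and 15.4 TPM in Myc WT and 16.4, 22.0, 15.25 and 12.3 TPM in Myc VD libraries, which overlapped. Ubtf, the factor that marks and opens ribosomal DNA and the highest of this group, was 39.0, 43.0, 51.6 and 38.05 TPM in Myc WT and 41.2, 48.4, 38.4 and 28.5 TPM in Myc VD. It did not differ beyond the spread between mice on either scale, with log2 differences of -0.14 ± 0.23 (SE; adjusted p = 0.782) and 0.16.

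Of the 7 snoRNP genes 6 were lower in mean log2(TPM + 1) as deposited and 4 after removal of rRNA genes. Nop56, a core protein of box C/D snoRNPs, was 254, 225, 258 and 178 TPM in Myc WT and 256, 212, 223 and 221 TPM in Myc VD libraries, a log2 difference of 0.01 ± 0.19 (SE; adjusted p = 0.99). Gar1, of the box H/ACA snoRNPs, was 127, 128, 191 and 102 TPM in Myc WT and 140.1, 135, 108 and 93.1 TPM in Myc VD. In both genes the Myc VD libraries lay within the range of Myc WT or just below it. The median over the 3 box C/D genes was -0.14, or 0.17 after removal of rRNA genes, and over the 4 box H/ACA genes -0.42, or -0.12 after removal, where Nop10 was the lowest at -0.87. In the nucleolar scaffold, chaperone or helicase group, Npm1 was 1617, 1300.2, 1793 and 988 TPM in Myc WT and 1422, 1202, 910.4 and 898 TPM in Myc VD libraries, with overlap and a log2 difference of -0.35 ± 0.24 (SE; adjusted p = 0.477).

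Groups did not overlap in 6 of the 46 genes, all lower in Myc VD (13%, where 9.16% of all genes tested were lower and 0.816% higher without overlap). Besides Polr1b all 5 encode subunit assembly factors, as do most of the 46 genes (16 of the small and 13 of the large subunit). Wdr43, a scaffold of the early small subunit precursor, was 46.1, 48.4, 58.75 and 34.5 TPM in Myc WT and 30.0, 28.4, 26.1 and 28.6 TPM in Myc VD libraries. Noc4l, which accompanies the small subunit out of the nucleolus, was 21.15, 18.6, 33.1 and 17.75 TPM in Myc WT and 14.6, 15.3, 8.44 and 17.45 TPM in Myc VD libraries. The Myc VD libraries of Wdr43 lay close together and clear of Myc WT, whereas the highest Myc VD and the lowest Myc WT library of Noc4l nearly touched. Their log2 differences were -0.69 ± 0.22 (SE; adjusted p = 0.173) and -0.66 ± 0.30 (SE; adjusted p = 0.298).

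Of the large subunit genes, Grwd1, a chaperone of a ribosomal protein, was 7.21, 7.04, 12.3 and 4.54 TPM in Myc WT and 3.95, 1.88, 2.36 and 3.54 TPM in Myc VD libraries. It had the most negative log2 difference of the 46 genes, -1.12 ± 0.38 (SE; adjusted p = 0.183), from low levels in every library. Nop16, which joins early large subunit precursors, was 24.7, 31.2, 35.1 and 19.9 TPM in Myc WT and 17.35, 18.2, 18.75 and 13.1 TPM in Myc VD. Pes1, the scaffold of the complex that it forms with Bop1 and Wdr12, was 12.6, 12.8, 14.0 and 12.1 TPM in Myc WT and 9.46, 8.43, 5.74 and 11.1 TPM in Myc VD. For these genes too the gap between the groups was smaller than the range within them, with log2 differences of -0.67 ± 0.26 (SE; adjusted p = 0.231) and -0.55 ± 0.28 (SE; adjusted p = 0.351). After removal of rRNA genes the differences of Wdr43, Noc4l, Grwd1, Nop16 and Pes1 were -0.39, -0.38, -0.94, -0.38 and -0.27.

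**Figure D4:**
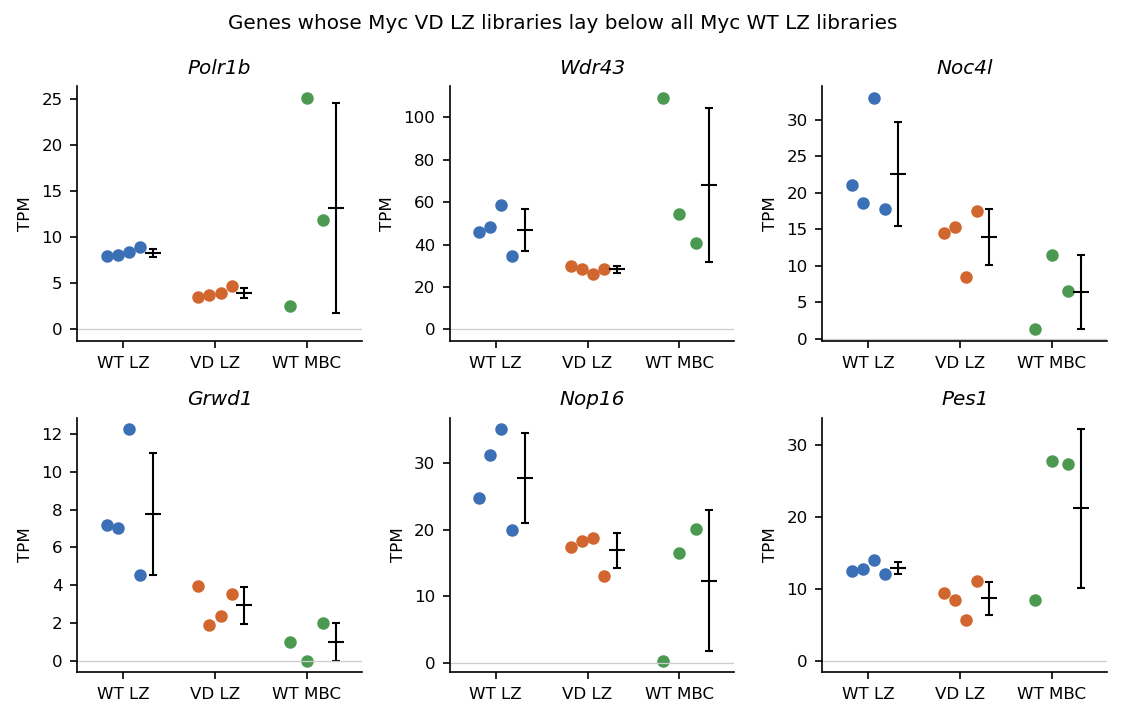
TPM as deposited of the 6 genes whose 4 Myc VD LZ libraries all lay below the 4 Myc WT LZ libraries; each point is 1 library and the bars show mean ± SD, and the vertical axis differs between panels. The MBC libraries are drawn alongside: all 3 lie below Myc WT LZ for Grwd1 and Noc4l, and at least 1 lies above every LZ library for Polr1b, Wdr43 and Pes1.

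The highest large subunit gene, Ebna1bp2, was 74.55, 54.8, 70.8 and 34.15 TPM in Myc WT and 43.5, 29.2, 49.0 and 30.1 TPM in Myc VD libraries, and the highest small subunit gene, Emg1, an rRNA methyltransferase, was 134, 177, 171 and 114 TPM in Myc WT and 159.8, 122, 144 and 76.8 TPM in Myc VD libraries. Both overlapped. Noc3l, a large subunit export factor, had the most positive difference, 0.15 ± 0.33 (SE; adjusted p = 0.852), from 8.56, 10.8, 13.4 and 8.20 TPM in Myc WT and 18.2, 6.72, 10.9 and 11.8 TPM in Myc VD libraries, and turned to -0.068 without Myc VD library 5. Leaving out 1 library at a time changed the sign of 9 of the 46 genes and kept 37 lower.

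MBCs were compared with LZ B cells of Myc WT mice to describe the same genes in cells that have left the germinal center. The 6 genes that mark naive follicular B cells summed to 1030.2 to 1120 TPM in MBCs and 367 to 371 TPM in Myc WT LZ libraries, with 5 of 6 past the adjusted threshold as higher (median 2.89), and their part in what follows was not tested. Of the 46 genes 1 passed the adjusted threshold, Grwd1, which was lower in MBCs, where 9.2% of all 13245 genes tested passed in either direction and 5.04% were lower. No gene of the 46 was higher at this threshold, where 4.17% of all genes were. At an unadjusted p under 0.05, 10 genes were lower (21.7%, beside 15.8% of all genes) and 2 were higher (4.35%, beside 11.3%). As libraries were left out these counts ran from 5 (without Myc WT LZ library 3) to 15 (without MBC library 4) and from 0 to 2, and the number of all genes past the adjusted threshold from 342 (without Myc WT LZ library 2) to 2754 (without MBC library 4). In mean log2(TPM + 1), 34 genes were lower (73.9%, beside 55.3% of all genes) and 12 higher. The median log2 difference was -0.50 beside -0.14 for all genes tested. After removal of rRNA genes the medians were -0.64 and -0.28, with 36 genes lower (78.3%, beside 59.7% of all genes), so the median of the 46 genes lay at -0.36 from that of all genes on both scales. On the deposited scale this distance was -0.15 without MBC library 1 and -0.48 without MBC library 3, the extremes as libraries were left out.

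Roles differed in direction among these differences. The median was 0.25 for the RNA polymerase I genes, -0.98 for box C/D and -1.48 for box H/ACA snoRNP genes, -0.14 for the nucleolar scaffold, chaperone or helicase genes, -0.48 for small subunit and -0.86 for large subunit genes. Of the 7 snoRNP genes all were lower in mean, 4 of them at an unadjusted p under 0.05, while 3 of the 4 polymerase I genes were higher, 1 of them at an unadjusted p under 0.05. These small groups stand beside 55.3% of all genes lower in mean, and 15.8% lower and 11.3% higher at an unadjusted p under 0.05. Of 6 further polymerase I subunits in the list of pathway genes, 5 were lower in mean. Polr1d (-1.43, adjusted p = 0.0451) and Cd3eap (-1.89, adjusted p = 0.0462), named after their values were seen, passed as lower. No test compared the roles with each other.

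Polr1a was 50.6, 38.7 and 25.4 TPM in MBC libraries 1, 3 and 4, against 15.4 to 25.6 TPM in Myc WT LZ libraries, and had the most positive log2 difference, 0.87 ± 0.35 (SE; adjusted p = 0.152). Libraries 1 and 3 were above each LZ library and library 4 lay within them. Ubtf was 56.1, 45.1 and 60.1 TPM in MBCs, a log2 difference of 0.32 ± 0.26 (SE; adjusted p = 0.477). The third core gene, Polr1b, was 2.49, 25.15 and 11.9 TPM, on both sides of the LZ range of 7.92 to 8.92 TPM. In the same MBC libraries the nuclear rRNA share was the lowest of the 3 groups, as given above. No relation between the levels of polymerase genes and the rRNA share was tested.

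Among snoRNP genes Nop58, a core protein of box C/D snoRNPs, was 88.1, 45.1 and 89.5 TPM in MBCs and 175, 149.6, 192 and 95.35 TPM in Myc WT LZ libraries. Fbl, the fibrillarin that methylates rRNA, was 33.3, 75.4 and 80.25 TPM in MBCs and 116, 123, 153 and 86.6 TPM in LZ libraries. All MBC libraries lay below all LZ libraries for these genes, with log2 differences of -1.05 ± 0.34 (SE; adjusted p = 0.09) and -0.98 ± 0.36 (SE; adjusted p = 0.118). Nop56, which partners Nop58, was 146, 254 and 184 TPM in MBCs and overlapped the LZ range, with -0.25 ± 0.25 (SE; adjusted p = 0.558). Of the H/ACA genes, Gar1 was 43.5, 7.83 and 109.8 TPM in MBCs (-1.94 ± 0.72, SE; adjusted p = 0.126), and Nop10 was 0.36, 14.6 and 21.2 TPM against 22.5, 55.6, 45.3 and 39.7 TPM in LZ libraries (-2.35 ± 0.88, SE; adjusted p = 0.128). Library 3 was the lowest for Gar1 and library 1 for Nop10, so the size of either difference rested on 1 MBC library, with ranges of -2.77 to -0.94 and -3.11 to -1.10 as libraries were left out.

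Grwd1, the gene that passed, was 1.02, 0 and 2.02 TPM in MBC libraries 1, 3 and 4, against 4.54 to 12.3 TPM in Myc WT LZ libraries. Each MBC library was below each LZ library, though at levels where library 3 listed no value above 0. The log2 difference was -2.19 ± 0.57 (SE; limma adjusted p = 0.0483). The call was narrow. With the mouse as a block, over the 3 mice that gave both cell types and so without Myc WT LZ library 2, the difference was -2.21 with an adjusted p of 0.269 and none of the 46 genes passed, while 248 genes of the table did. Without MBC library 4 the difference was -2.55 and 5 genes passed, namely Emg1, Gar1, Grwd1, Heatr1 and Ltv1, where 2754 of all 13093 genes did. Without library 1 only Ppan passed and without library 3 only Noc4l, which was lower, and Nop14, which was higher. No gene passed when any 1 of the Myc WT LZ libraries was left out.

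Mrto4, which holds the place of the ribosomal stalk on large subunit precursors, had the most negative log2 difference, -2.47 ± 0.90 (SE; adjusted p = 0.118), from 15.5, 0 and 11.6 TPM in MBCs against 21.9, 44.6, 42.4 and 24.7 TPM in LZ libraries. Without MBC library 3 it was -1.19. Emg1 was 56.5, 10.2 and 98.8 TPM in MBCs, below each LZ library (-1.88 ± 0.64, SE; adjusted p = 0.101), and Ebna1bp2 was 14.0, 28.5 and 69.95 TPM, which overlapped. The lower end of each of these genes was in library 1 or 3, the libraries with the fewest genes above 0.

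Groups did not overlap in 9 of the 46 genes lower in MBCs (19.6%, beside 14.4% of all genes tested) and in 1 gene that was higher (2.17%, beside 11.8%). The latter was Ddx10, a helicase of small subunit assembly, at 39.2, 29.5 and 36.5 TPM in MBCs against 22.9, 21.45, 23.7 and 16.6 TPM in LZ libraries (0.71 ± 0.30, SE; adjusted p = 0.175). Its 3 MBC libraries lay close together. So did those of the most abundant genes: Npm1 was 1233, 956 and 1436 TPM in MBCs, which overlapped the LZ range of 988 to 1793 TPM, with a log2 difference of -0.22 ± 0.24 (SE; adjusted p = 0.6), and Ncl, which encodes nucleolin, differed by -0.21.

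**Figure D5:**
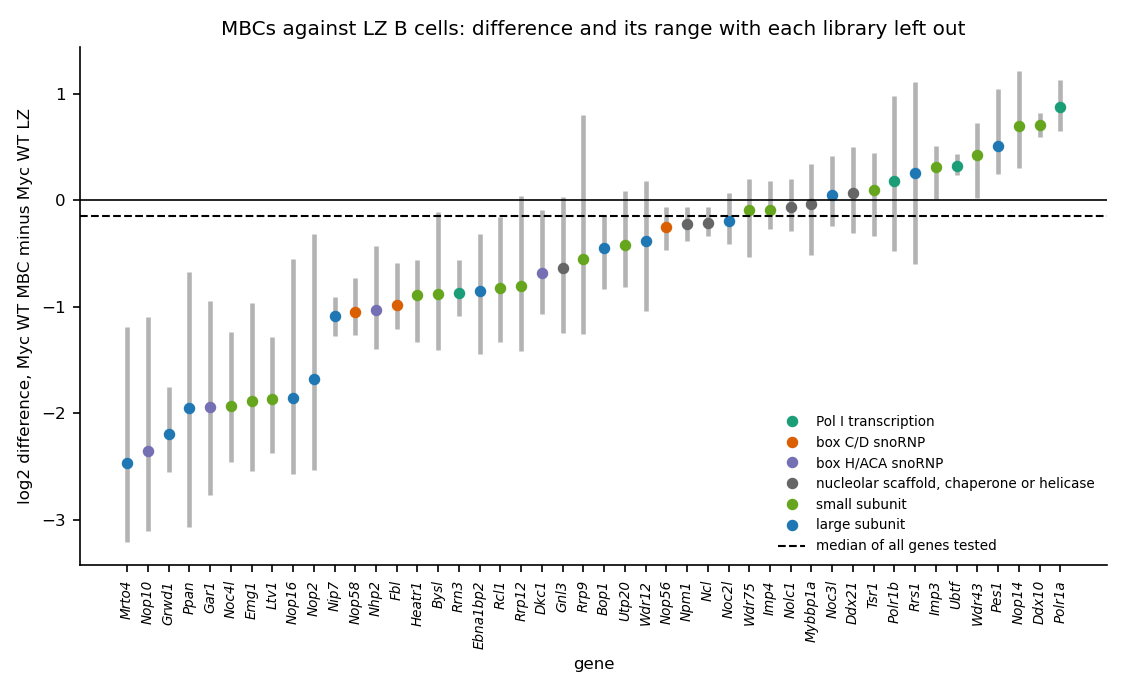
Each point is the log2 difference of Myc WT MBC minus Myc WT LZ for 1 of the 46 genes, colored by role, and the gray bar spans its values as each of the 7 libraries was left out in turn; the dashed line at -0.14 is the median of all genes tested. Of the 46 bars, 24 lie wholly below 0, 7 wholly above it and 15 cross it, and the longest belong to genes listed at or near 0 in 1 MBC library.

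With MBC library 4 as the only MBC library, a choice made after the data were seen, the median log2 difference of the 46 genes was -0.27 where that of all genes was 0.10, with 28 genes lower, and 1 gene, Ppan, passed the adjusted threshold, where 1399 of all 13149 genes did. Here the lone library is assumed to vary like the LZ libraries.

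Set against Myc VD LZ libraries, which differ from the MBC libraries in genotype and in cell type together, 25 of the 46 genes were lower in MBCs (54.3%, beside 43.9% of all genes), with a median of -0.17 beside 0.16 for all 13131 genes tested. None of the 46 passed the adjusted threshold, where 3.88% of all genes did (1.36% lower and 2.52% higher). At an unadjusted p under 0.05, 4 were lower, Nop58, Gar1, Emg1 and Mrto4 (8.7%, beside 7% of all genes), and 3 were higher, Polr1a, Ddx10 and Wdr43 (6.52%, beside 12.3%). As libraries were left out these counts ran from 0 (without Myc VD library 6) to 7 (without MBC library 4) and from 1 (without Myc VD library 8) to 5 (without MBC library 3), and the number of all genes past the adjusted threshold from 203 (without Myc VD library 7) to 731 (without MBC library 4). Groups did not overlap in Nop58, which was lower (2.17%, beside 5.99% of all genes), and in the same 3 that were higher (6.52%, beside 12.5%). After removal of rRNA genes 33 were lower, 9 of them at an unadjusted p under 0.05, and none was higher at that level. Of all genes 58% were lower, with 10.9% lower and 6.58% higher at an unadjusted p under 0.05. This rescaling moved the median of all genes from 0.16 to -0.22, and the median of the 46 genes lay at -0.33 from it on both scales. As deposited, the distance ranged from -0.17 without MBC library 1 to -0.40 without MBC library 4, and the median itself from -0.041 to -0.39. Ddx10, with the most positive difference, was 24.0, 7.40, 16.2 and 14.6 TPM in Myc VD LZ libraries, all below the 3 MBC libraries (1.22 ± 0.48, SE; adjusted p = 0.198). Polr1a differed by 1.14 ± 0.44 (SE; adjusted p = 0.189) and Wdr43, at 109, 54.3 and 40.5 TPM in MBCs, by 1.11 ± 0.41 (SE; adjusted p = 0.169). Mrto4, at 13.77, 58.9, 24.2 and 27.0 TPM in Myc VD, had the most negative difference at -2.25 ± 0.91 (SE; adjusted p = 0.207), followed by Gar1 at -1.75 ± 0.67 (SE; adjusted p = 0.183).

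The comparisons share libraries, so their values are set side by side only. For Polr1b the log2 difference was -0.92 in Myc VD LZ and 0.18 in MBCs, each against Myc WT LZ; for Wdr43 it was -0.69 and 0.43, for Pes1 -0.55 and 0.51, and for Grwd1 -1.12 and -2.19. For Gar1 it was -0.19 and -1.94, and for Emg1 -0.27 and -1.88. By group mean of TPM, not of log2 values, 30 of the 46 genes were highest in Myc WT LZ libraries, 14 in MBC and 2 in Myc VD LZ libraries. By the same means 23 were lowest in MBCs, 22 in Myc VD LZ and 1 in Myc WT LZ libraries. After removal of rRNA genes 18 were highest in Myc WT LZ, 13 in MBC and 15 in Myc VD LZ libraries, and 30 were lowest in MBCs, 12 in Myc VD LZ and 4 in Myc WT LZ libraries.

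Further genes of the pathway, 124 of a list of polymerase I subunits, processome proteins and late assembly factors, were compared in the same way. In Myc VD LZ libraries 109 of the 124 were lower (73.7% of all genes were), with a median of -0.34 beside -0.31 for all genes, and by limma none passed the adjusted threshold (27 lower and 0 higher at an unadjusted p under 0.05, where 15.7% of all genes were lower and 1.24% higher). After removal of rRNA genes 70 were lower (54.2% of all genes were) with a median of -0.057, close to the -0.052 of all genes. In MBCs 88 were lower against Myc WT LZ (55.3% of all genes were), with a median of -0.31 beside -0.14 for all genes, and 6 passed the adjusted threshold, all lower, where 5.04% of all genes did. Against Myc VD LZ 1 passed, Mak16, a large subunit factor named here because it was the only one, which was higher in MBCs (1.89 on the log2 scale, limma adjusted p = 0.042), where 2.52% of all genes were. After removal of rRNA genes this call was lost: none of the 124 passed as higher and 1 passed as lower, where 191 and 304 of all 14385 genes did. Myc itself was 32.6, 35.5, 45.2 and 30.7 TPM in Myc WT LZ, 66.8, 48.2, 24.9 and 44.3 TPM in Myc VD LZ and 82.9, 43.2 and 69.7 TPM in MBC libraries, and Zbtb17, which encodes MIZ1, was between 0.7 and 8.35 TPM in all libraries. Neither passed in any comparison, with adjusted p-values by limma of 0.645 for Myc in Myc VD and 0.139 in MBCs. Division genes differed with the cell type also: the 18 S phase genes summed to 1463 to 2309 TPM in Myc WT LZ, 919 to 1732 TPM in Myc VD LZ and 339 to 589.6 TPM in MBC libraries, and their part in the differences of the 46 genes was not tested.

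RefSeq promoter windows (GRCm38.p6, 250 bases before to 50 after the start) were found for 41 of the 46 genes, all but Bop1, Fbl, Npm1, Rrp12 and Rrs1. The E-box CACGTG, a palindrome that MYC and MAX bind, stood in at least 1 window of 10 of the 41 genes (24.4%), against 8.09% of all 27025 genes of the promoter table and 12.2% of the 8230 with a window among the genes tested. The variant CACGCG, searched on both strands and free to overlap with the first, stood in 13 (31.7%, against 10.5% and 20.9%). Genes with several start sites have several windows; by window the shares were 20.4% of 49 and 7.15% of 32851 for CACGTG. The stretches of 30 bases around the E-box of the 4 highest genes that hold one are shown to place it, in gene direction, with CACGTG in capitals.
Mybbp1a (chr11:72441347-72441376, plus strand): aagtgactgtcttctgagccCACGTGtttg
Wdr43 (chr17:71616220-71616249, plus strand): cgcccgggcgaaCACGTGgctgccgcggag
Imp4 (chr1:34439696-34439725, plus strand): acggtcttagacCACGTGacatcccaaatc
Ltv1 (chr10:13193092-13193121, minus strand): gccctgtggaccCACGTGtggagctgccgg
The E-box begins at base 41 after the start in Mybbp1a, 18 in Wdr43 and 29 in Ltv1, and 121 bases before it in Imp4, counted from 1 at the first transcribed base. In Myc VD LZ libraries the 10 genes with CACGTG had a median log2 difference of -0.50, with all 10 lower, and the 31 without it -0.39, with 29 lower; in MBCs against Myc WT LZ the medians were -0.25 and -0.63. A match is only a description of the letters in these windows, and binding was not measured here.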

How the data were processed

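RNA of sorted LZ B cells and MBCs was sequenced after cDNA amplification from total RNA, and per the labels and the authors' methods reads were aligned with STAR 2.5.2a to GRCm38 and summarized with RSEM 1.3.0 as deposited TPM values for each gene and library. The authors tested counts with DESeq2; counts were not used here, so read depth is unknown. TPM were tested here with limma 3.58.1 in R 4.3.3 (moderated, with a mean trend, two-sided) on log2(TPM + 1), keeping each gene whose average reached 1 TPM in the libraries compared, and using only the groups compared and Benjamini-Hochberg adjusted p-values at 0.05 over all genes tested. A log2 difference is on this scale and understates the change of low genes. Counts of genes lower or higher between 2 groups follow its sign, whereas the ranking of the 3 groups used mean TPM. Single values were compared by exact permutation tests, two-sided on the absolute difference of means (70 groupings of 4 against 4 libraries and 35 of 3 against 4). Comparisons were Myc VD LZ against Myc WT LZ, MBC against Myc WT LZ, and MBC against Myc VD LZ. Groups came from the labels, where each LZ library is a different mouse. Myc WT mice 1, 3 and 4 gave both cell types, yet their LZ and MBC libraries deviated from the group means with correlations of 0.00471, 0.00169 and -0.035, and a fit with the mouse as a block is given beside the call it bears on.

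For rescaling, 356 rRNA genes were removed and TPM scaled to the same total. Means, SDs and counts were computed with Python 3.11.15, numpy 2.4.6, pandas 2.3.3 and scipy 1.17.1, and figures were drawn with matplotlib 3.10.9. Pseudogene copies were matched with BLAST 2.17.0. Values in every library are given for the highest gene of each role, the 2 most negative and the 2 most positive differences of each comparison, genes past the adjusted threshold, and genes whose Myc VD and Myc WT LZ libraries did not overlap; Nop58 and Fbl were added after their values were seen. The 46 genes and the further lists were chosen with earlier results of these data known. Scripts were tested on simulated data. Alternatives were another pseudocount, other filters and scalings, all groups in 1 fit, the mouse block, the first name prefix only, and each library left out in turn.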

Additional observations from a re-analysis of the deposited data

How the results depend on the processing

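Scaling moved the median more than its distance from that of all genes, which in Myc VD LZ against Myc WT LZ was -0.11 and stayed between -0.14 and -0.080 over 4 scalings, against -0.30 with no filter. The median log2 difference of the 46 genes in Myc VD LZ against Myc WT LZ was -0.14 without rRNA genes, -0.10 with median-ratio scaling, -0.064 with nuclear protein-coding genes only and -0.15 with quantile normalization, where the deposited TPM gave -0.42. In the same 4 settings, in this order, the difference turned positive for Emg1 (0.042, 0.074, 0.115 and 0.058), Gar1 (0.12, 0.16, 0.20 and 0.11) and Ubtf (0.16, 0.19, 0.24 and 0.087), and for Npm1 with protein-coding genes only (0.033). With 1 library left out Noc3l ranged from -0.068 (without Myc VD library 5) to 0.37, and Nop56 from -0.11 (without Myc WT library 4; also negative without Myc VD library 5) to 0.068. At unadjusted p-values 6 genes passed as lower and 0 as higher. These counts were 1 and 0 without rRNA genes, 1 and 1 with median-ratio scaling, 0 and 1 with protein-coding genes only, and 3 and 0 with quantile normalization. In MBCs against Myc WT LZ the number lower past the threshold was 1 as reported, 4 with all groups in 1 fit, 2 with the first name prefix only (median -0.92), 3 with median-ratio scaling or quantile normalization, and 0 with a minimum mean of 5 TPM (44 of the 46 genes tested), no filter, a pseudocount of 0.1 or the replicate block. At unadjusted p-values it was 10 lower and 2 higher, or 13 and 1 without rRNA genes, where 2572 and 1380 of all 14338 genes were. Leaving out 1 library gave 0 to 5 lower and 0 to 1 higher. The Grwd1 call was also lost with MBC library 4 alone (-1.47) and without any library but MBC library 4. With that library alone Ebna1bp2 (0.31) and Npm1 (0.048) turned positive. In MBCs against Myc VD LZ the median of -0.17 became -0.43, -0.53 and -0.56 with median-ratio scaling, protein-coding genes only and removal of rRNA genes, and 0.22 with MBC library 4 alone. Nop58 passed as lower with protein-coding genes only or quantile normalization (1 gene each, where 551 of 10869 and 645 of 13131 genes passed in either direction), and leaving out 1 library gave 0 to 1. At unadjusted p-values 4 were lower and 3 higher, or 9 lower without rRNA genes. Ebna1bp2 turned to 0.90 with MBC library 4 alone and ranged from -0.85 to 0.27 (without MBC library 1) with 1 library left out, and Npm1 to -0.17, -0.23, -0.15 and -0.27 with median-ratio scaling, protein-coding genes only, quantile normalization and removal of rRNA genes, ranging from -0.0022 (without MBC library 4) to 0.29 with 1 library left out. The block also leaves out Myc WT LZ library 2, without which none of the 46 genes passed in the fit with no block either. Over all genes 342 passed in that fit and 248 with the block. The causes were not tested. Without read numbers, the precision of genes near 0 TPM cannot be given.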

Other observations

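Processed copies of these genes elsewhere in the genome could share reads with them. By BLAST, 26 pseudogenes matched transcripts of 13 of the 46 genes over at least 200 bases at 90% identity or more and over 50% or more of the pseudogene. Their share of the summed TPM of gene and copies reached at most 5.67% in any library, for Fbl, and adding them to the gene turned no direction, as a comparison of means with no test.

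Myeloid and T cell genes were measured in both gates. The summed level of 8 myeloid genes was 4.26 to 12.3 TPM in Myc WT LZ, 0 to 22.0 TPM in Myc VD LZ and 43.0 to 232 TPM in MBC libraries, with S100a8 and S100a9 listed at 0 in all 3 MBC libraries. That of 8 T cell genes was 34.2 to 68.8, 27.5 to 44.95 and 0 to 49.4 TPM in the same order. The part of these cells in the levels of the 46 genes was not tested.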
